A study of Mus musculus with 21 samples.

Results

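The 9 genes described here carry out the last steps of protein absorption at the luminal surface of the gut epithelium. They were chosen by symbol as a list of apical transporters and brush-border peptidases, and all 9 were found among the 21441 gene rows of each deposited table. Slc15a1 (mm9 chr14:121858841-121904475), Slc6a19 (chr13:73817193-73842313), Slc7a9 (chr7:36234056-36251055), Slc3a1 (chr17:85427687-85463583) and Slc1a1 (chr19:28909539-28988450) encode transporters. Anpep (chr7:86966689-86993096), Dpp4 (chr2:62168130-62250288), Enpep (chr3:128972093-129035638) and Mme (chr3:63099794-63186153) encode membrane peptidases.

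Dietary protein reaches the distal small intestine largely as short peptides. Ectopeptidases anchored in the brush border trim these peptides to dipeptides, tripeptides and free amino acids, which separate transporters in the same membrane then take up: a proton-coupled carrier for the short peptides and sodium-coupled or exchange carriers for neutral, basic and acidic amino acids. The system is best known from villus enterocytes, and the surface cells of the colon carry less of it.

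RNA was sequenced from mouse colon and ileum in 21 samples of strain C57BL6J, all labelled as intestinal epithelium. The KO mice were Villin-CreERT2 VDR f/f animals, a genotype in which a tamoxifen-inducible Cre under the gut epithelial Villin promoter can remove the vitamin D receptor. Their labels give no treatment and name no inducing agent (colon n = 4, ileum n = 4, 9 to 11 weeks old, male). The uninjected mice were CDX2-VDR transgenic animals with no treatment (colon n = 4, ileum n = 3, 9 to 10 weeks old), of which 5 samples were labelled female and 2 male. The treated mice were CDX2-VDR transgenic animals given 1,25D3, the hormonal form of vitamin D, at 1 ng/g body weight in 3 injections at 48, 24 and 6 h before the end (colon n = 3, ileum n = 3, 9 weeks old, male). Per the labels the transgenic mice have no mouse receptor and make human VDR in the distal intestine alone, and KO is the submitters' name for the other genotype. No wild-type group is compared here. Nothing in the labels ties a colon and an ileum sample to the same animal or says that samples of a group came from separate animals, so p-values measure the spread between these samples. The comparisons set tissue with the distal transgene, without and with hormone, against KO tissue, and comparisons within a tissue share libraries. Sex and age moved in part with the groups and cannot be fully told apart from the transgene. Treated samples were all male and 5 uninjected samples female, so sex cannot be fully told apart from the hormone either.

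Values are FPKM, read counts scaled to gene length and library size, which allow levels of different genes to be set side by side. Each table held 2 groups of 1 tissue and was scaled on its own, so groups were tested only within a table. KO and uninjected levels below come from the table those groups share, and treated levels from the table shared with KO. Libraries are numbered as their columns are.

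Several facts about the libraries bear on what follows. Estimated depth ran from 8.3 to 41.6 M reads in the colon and from 9.8 to 50.2 M reads in the ileum. Vdr itself was at 20.6 to 23.5 FPKM in Colon KO and at 12.7 to 34 in Colon uninjected, but this value covers the whole gene, including exons outside a deletion, and the transgenic mice are labelled as lacking the mouse receptor too, so it does not check the labels. The tissue labels matched the markers in rank: 6 of 7 colonocyte markers were found, with a summed level of 3101 to 12090 FPKM in the colon and 215 to 728 in the ileum, and all 4 ileal markers were found, with sums of 4368 to 39350 in the ileum and 148 to 1238 in the colon. Some marker sums moved with the groups. In the colon the 3 Paneth markers found of 4 summed to 1417 to 3309 FPKM in KO, 26.4 to 608 in uninjected and 85.7 to 369 in treated, and the 5 goblet markers to 11210 to 15550, 8965 to 12920 and 6342 to 7761. The median of the Paneth markers overlapped between these groups, at 27.77 to 62.97, 8.982 to 286.8 and 36.36 to 80.94 FPKM, so the sum did not speak for the list. Treated colon was also apart from KO in smooth muscle markers, at 1016 to 1272 against 1648 to 2351 FPKM, and in myeloid markers, at 156 to 212 against 99.7 to 137. In the ileum the ileal markers summed to 14740 to 37290 in KO, 15410 to 39350 in uninjected and 4368 to 9160 in treated. By the median marker of a list, treated and KO overlapped for colon myeloid and for ileal markers in the ileum. They stayed apart for goblet and smooth muscle markers in the colon. The part of these markers in the differences below was not tested. The 5 smooth muscle markers summed to 552 to 5965 FPKM in the colon and 534 to 2286 in the ileum, beside 3854 to 9131 and 4722 to 14270 for 6 markers of all epithelium. Pancreatic acinar transcripts (13 genes) summed to 43050 FPKM in Colon KO 2, 145400 in Colon uninjected 3 and 23240 in Colon treated 4, against 124 to 993 in the other 8 colon libraries. Ileum uninjected 3, Ileum treated 1 and, less so, Colon uninjected 1 and 2 stood apart in how far level rose with the GC content of the transcript. The log2 slope per 10 percentage points of GC was 0.82 and 0.44 in Colon uninjected 1 and 2. Colon treated 4 sloped the other way, at -0.44 in the table with KO and -0.63 in that with uninjected. Ileum treated 4 did so too, at -0.48 and -0.76. Colon uninjected 1 and 2 also had the most smooth muscle transcripts, at 5965 and 4342 FPKM.

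The stretch of 250 bases upstream of the RefSeq start site is shown for 4 members: Slc7a9 and Slc3a1, whose products form a single transporter and whose mean colon levels were higher in the transgenic groups without passing the test, and Dpp4 and Enpep, whose ileal profiles were nearest to each other among the members. All 9 members were matched by symbol. The sequences are RefSeq's (GRCm38.p6), and each was found by exact match at a single place of the same chromosome in mm9, the build named for these data. They lie at chr7:36233861-36234110 (plus strand, the upstream of 2 listed starts of Slc7a9), chr17:85427437-85427686 (plus strand, Slc3a1), chr2:62250289-62250538 (minus strand, Dpp4) and chr3:129035668-129035917 (minus strand, Enpep). Capitals mark exact matches, on either strand, to the motifs searched.
Slc7a9: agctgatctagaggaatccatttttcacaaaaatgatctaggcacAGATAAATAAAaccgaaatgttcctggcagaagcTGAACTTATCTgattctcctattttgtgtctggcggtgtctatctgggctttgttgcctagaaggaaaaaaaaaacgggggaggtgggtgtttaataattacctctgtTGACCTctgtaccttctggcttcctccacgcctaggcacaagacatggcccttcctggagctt
Slc3a1: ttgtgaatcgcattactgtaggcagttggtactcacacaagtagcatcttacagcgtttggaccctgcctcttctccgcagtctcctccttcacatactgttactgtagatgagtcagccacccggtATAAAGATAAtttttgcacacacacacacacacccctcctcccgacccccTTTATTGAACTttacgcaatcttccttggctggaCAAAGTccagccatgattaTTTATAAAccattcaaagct
Dpp4: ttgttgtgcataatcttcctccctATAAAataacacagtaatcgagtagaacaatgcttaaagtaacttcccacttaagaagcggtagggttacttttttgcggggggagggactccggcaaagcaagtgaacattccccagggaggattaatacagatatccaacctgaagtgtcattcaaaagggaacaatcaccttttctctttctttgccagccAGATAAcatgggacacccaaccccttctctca
Enpep: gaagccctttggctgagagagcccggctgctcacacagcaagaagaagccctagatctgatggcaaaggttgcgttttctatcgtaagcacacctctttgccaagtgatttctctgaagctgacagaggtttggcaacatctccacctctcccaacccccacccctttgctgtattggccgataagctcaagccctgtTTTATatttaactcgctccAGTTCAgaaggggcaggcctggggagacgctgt

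The motifs were TTTAT, the core bound by CDX homeobox factors, AGATAA for the GATA family, GTTAAT for the factor HNF1 and CAAAGT for the factor HNF4. For nuclear receptors, which include VDR, the hexamer AGGTCA was searched along with the variant hexamer GGTTCA and the variant hexamer AGTTCA. The CDX core TTTAT occurred 4 times upstream of Slc3a1, 2 times upstream of Slc7a9, and 1 time each upstream of Dpp4 and Enpep, and it occurs in 37.3% of all 32851 promoter stretches of that length. Of the GATA motif, Slc7a9 had 2 matches and Slc3a1 and Dpp4 had 1 each, against 10.0% of all stretches with any. CAAAGT was found upstream of Slc3a1 (12.6% of all stretches) and GTTAAT upstream of none of the 4 (6.4%). AGTTCA was present upstream of Slc7a9, Slc3a1 and Enpep (11.8% of all stretches), AGGTCA upstream of Slc7a9 (14.0%), and GGTTCA upstream of none (8.8%). Several matches overlap: a CDX core shares bases with the GATA motif in both transporter genes, and AGTTCA shares bases with a GATA match in Slc7a9. In Slc3a1 an AGTTCA match lies directly beside a TTTAT match without sharing a base. These are matches of letters and carry no measure of binding. Among the other members, the start sites of Slc6a19, Slc1a1 and Anpep had no match to any motif. Slc15a1 had 1 match each to CAAAGT and AGTTCA, and 1 of the listed Mme starts had 1 match to CAAAGT.

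All 9 genes were far higher in the ileum than in the colon. In each of the 27 combinations of gene and group, every ileum library lay above every colon library, and the ratio of the group means ran from 4.06 (Slc3a1, treated) to 183 (Anpep, KO). The tissues come from separately scaled tables, so these ratios are a description with no test. In bulk tissue, fewer cells of a type and less RNA per cell cannot be told apart.

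**Figure D1:**
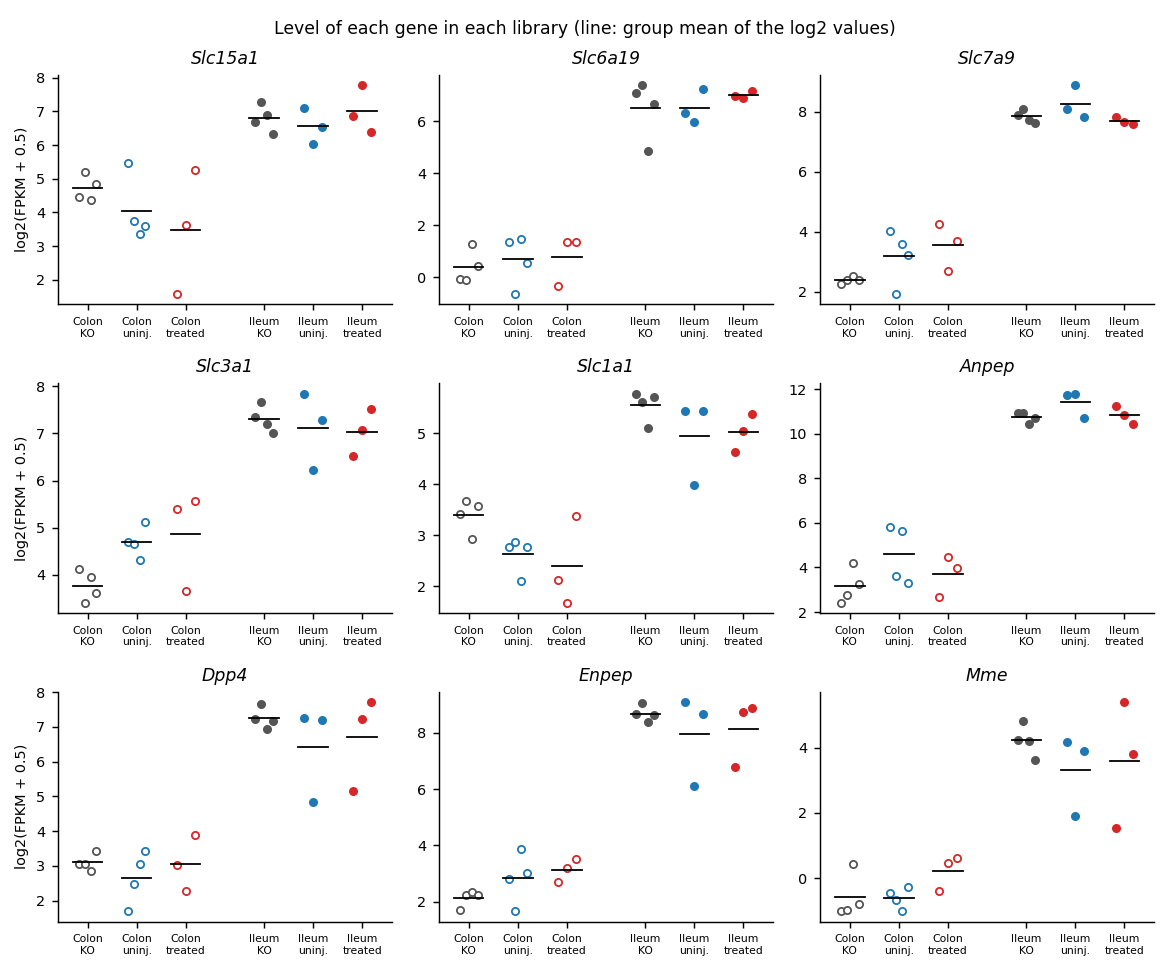
Level of each of the 9 genes, as log2(FPKM + 0.5), in each library of the 6 groups. Open circles are colon libraries, filled circles ileum libraries, and lines the group means of the log2 values. All ileum points lie above all colon points for each gene, and 1 uninjected and 1 treated ileum library sit far below their groups for Dpp4, Enpep and Mme.

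The order of the genes differed between the tissues. In Ileum KO, Anpep led at 1748 ± 271 FPKM (SD, n = 4), followed by Enpep at 415 ± 84.1, Slc7a9 at 231 ± 33.4, Slc3a1 at 159 ± 31.5, Dpp4 at 153 ± 33.4, Slc15a1 at 114 ± 31.6, Slc6a19 at 108 ± 59.7, Slc1a1 at 47 ± 9.09 and Mme at 19 ± 6.51. Anpep stood clear of Enpep, Enpep of Slc7a9, and Slc1a1 of Mme, while the libraries of every other pair of neighbours overlapped. In Colon KO, Slc15a1 led at 26.5 ± 7.42 FPKM (n = 4) and Anpep in the fourth place, at 9.53 ± 5.86. Slc3a1 stood at 13.4 ± 3.01, Slc1a1 at 10.2 ± 2.24, Dpp4 at 8.14 ± 1.48, Slc7a9 at 4.76 ± 0.402, Enpep at 3.94 ± 0.818, Slc6a19 at 0.917 ± 0.708 and Mme at 0.235 ± 0.41. Slc15a1 was clear of Slc3a1, Dpp4 of Slc7a9, and Enpep of Slc6a19, and the other neighbours overlapped. The peptide carrier thus led the list in Colon KO, and aminopeptidase N led it in Ileum KO.

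No member passed the threshold in any of the 6 comparisons between groups or in the 3 tests of a difference between tissues. Of the 9 genes, 8 were above the level filter in every colon table and all 9 in the ileum; Mme in the colon was tested by itself. The tests were limma on log2(FPKM + 0.5), two-sided, with Benjamini-Hochberg adjustment over all genes of the fit and a threshold of 0.05. Few genes of any kind were called: 0.0804% of 12437 tested genes for Colon uninjected minus Colon KO, 0% of 12567 for Colon treated minus Colon uninjected and 0.296% of 12505 for Colon treated minus Colon KO. In the ileum these shares were 0.00846% of 11827 for uninjected minus KO, 0% of 11815 for treated minus uninjected and 0.0835% of 11974 for treated minus KO. At an unadjusted p under 0.05, limma counted 143 genes for Colon treated minus Colon uninjected and 97 for Ileum treated minus Ileum uninjected, none of them a member. At that unadjusted level 3 of 8 members counted for Colon uninjected minus Colon KO, 3 of 8 for Colon treated minus Colon KO and 0 of 9 for both ileal comparisons with KO. In the tests of a difference between tissues the number was 1 of 9 for uninjected minus KO, 0 of 9 for treated minus uninjected and 3 of 9 for treated minus KO. How many of all genes lay under that level in the comparisons with KO and in the tissue tests is not given here. These member counts therefore have no share over all genes beside them and are not read as many or few. The intervals below show how large a difference these libraries leave possible, and a p that misses the threshold does not show that levels were equal.

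**Figure D2:**
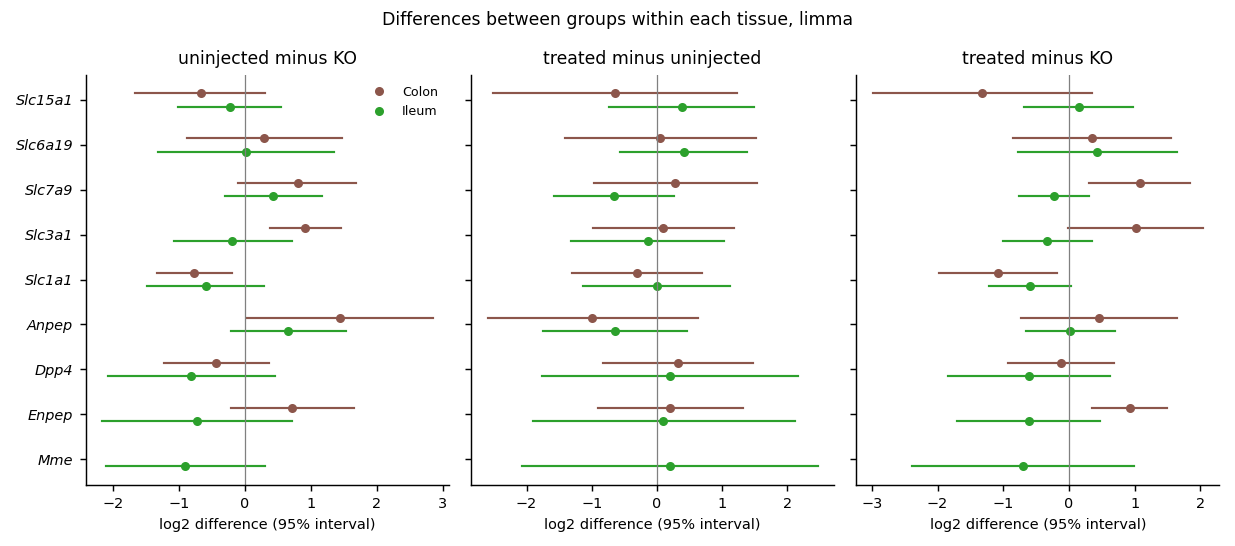
Differences between groups within each tissue, in log2(FPKM + 0.5), for each member that passed the level filter (points, limma estimate; lines, 95% interval), for colon and ileum. In the colon, Slc3a1 sat above 0 at 0.92 and Slc1a1 below it at -0.77 for uninjected minus KO, and every ileal interval for uninjected minus KO spans 0.

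Slc7a9 and Slc3a1 encode the light and heavy chains of the exchanger b0,+AT/rBAT, which takes up cystine and basic amino acids and is defective in cystinuria. In the colon Slc3a1 was at 16.8, 10.1, 14.9 and 11.7 FPKM in KO 1 to 4 and at 25.3, 24.5, 19.3 and 34.1 in uninjected 1 to 4. Every uninjected library lay above every KO library, in a comparison where 2.71% of all 12437 tested genes had groups that did not overlap. The difference was 0.92 on the log2 scale (95% interval 0.38 to 1.46, 1.89-fold, adjusted p = 0.7210 by limma). In the treated colon Slc3a1 was at 41.7, 12 and 47 FPKM in libraries 1, 2 and 4, so treated 2 lay among the KO libraries (10.7 to 17.8 in that table). Treated minus KO was 1.02 (interval -0.01 to 2.04, adjusted p = 0.6854). Without Colon uninjected 1 and 2 the uninjected minus KO difference of Slc3a1 was 0.94, so it was as large without them. The Paneth sums given above were also lower in both transgenic colon groups than in KO, while the Paneth medians overlapped. Goblet sums were lower in treated than in KO.

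Colon Slc7a9 ran from 4.29 to 5.27 FPKM in KO. It was measured at 15.7, 3.28, 11.5 and 8.9 FPKM in uninjected 1 to 4. Uninjected 2 was the lowest of all 8, and the other 3 were above every KO library. Treated libraries 1, 2 and 4 had 18.8, 5.98 and 12.5 FPKM, each above the 4 KO libraries of that table (4.54 to 5.65). Treated minus KO was 1.08 (interval 0.31 to 1.85, 2.12-fold, adjusted p = 0.4398 by limma), and uninjected minus KO was 0.80 (interval -0.10 to 1.69, adjusted p = 0.7210), or 0.52 without uninjected 1 and 1.22 without uninjected 2. Colon treated 2 decides the call of both subunits: without it, treated minus KO was 1.51 for Slc7a9 (adjusted p = 0.03858) and 1.63 for Slc3a1 (adjusted p = 0.04453), and both passed. Without Colon treated 4 the Slc3a1 difference was 0.67. Colon treated 2 is also the shallowest of the treated colon, at about 9.7 M reads against 23.3 M reads and 27.9 M reads for the others. Its 10 markers of small-intestinal enterocytes summed to 4578 FPKM, against 837 and 666 in treated 1 and 4, and its 6 stromal markers to 1039, against 281 and 433. The median enterocyte marker was at 12.11 FPKM, beside 7.763 and 13.32, so the higher sum did not hold for the list as a whole. Its ileal markers summed to 236, against 415 and 320. The median stromal marker was at 106.6, against 34.66 and 37.89. The part of these in the result was not tested.

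In the ileum the transgenic libraries of neither subunit lay above all KO libraries. Slc3a1 was at 162, 202, 146 and 128 FPKM in KO 1 to 4, at 230, 73.9 and 155 in uninjected 1, 3 and 4, and at 90.7, 135 and 183 in treated 1, 2 and 4. The Slc7a9 levels were 239, 275, 214 and 198 FPKM for KO, 276, 477 and 227 for uninjected and 228, 200 and 191 for treated. Uninjected 3 was thus lowest for one subunit and highest for the other. Slc7a9 was the only member whose ileal groups separated: in the table of treated and uninjected libraries it had 209, 185 and 178 FPKM against 267, 461 and 223, a difference of -0.66 (interval -1.58 to 0.26, adjusted p = 1.000 by limma), and -0.36 without uninjected 3. Of all genes tested there, 2.70% had groups that did not overlap.

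The test of the difference between tissues gave, for treated minus KO, an ileal effect lower than the colonic one by 1.31 for Slc7a9 (log2 difference -1.31, interval -2.17 to -0.45, adjusted p = 0.9767) and by 1.34 for Slc3a1 (log2 difference -1.34, interval -2.55 to -0.13, adjusted p = 0.9767). Neither passed, and 0.00803% of 12448 genes did.

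The ratio of the subunits differed between the tissues. Slc7a9 was at 0.256 to 0.469 of the Slc3a1 level in the Colon KO libraries and at 1.36 to 1.55 times it in the Ileum KO libraries. Transgenic colon libraries spanned 0.134 (uninjected 2) to 0.621 (uninjected 1), around the KO range. Ileum uninjected 3 had a ratio of 6.45 and Ileum treated 1 of 2.51, against 1.04 to 1.55 in the other 8 ileum libraries.

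**Figure D3:**
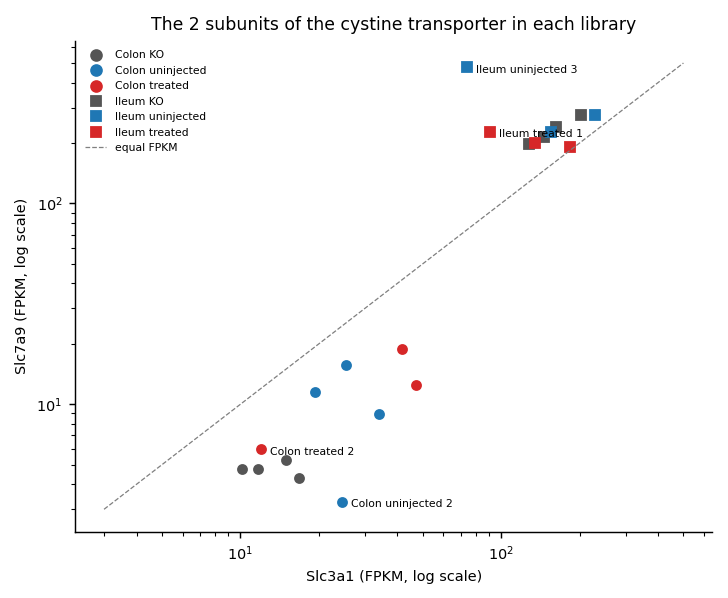
Slc7a9 against Slc3a1 in FPKM, on log axes, in each colon library (circles) and ileum library (squares), with a dashed line at equal FPKM. Colon libraries lie below the line and ileum libraries above it, and Ileum uninjected 3, at 477 and 73.9 FPKM, is farthest from the line.

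Slc1a1 encodes EAAC1, the sodium-coupled carrier for glutamate and aspartate. It was the only member lower in the uninjected than in the KO colon with groups that did not overlap: 10.1, 12.2, 7.09 and 11.4 FPKM in KO 1 to 4 and 6.3, 6.77, 3.78 and 6.34 in uninjected 1 to 4. Of all genes tested there, 2.71% had groups that did not overlap in either direction. The difference was -0.77 (interval -1.33 to -0.20, adjusted p = 0.7210 by limma), -0.96 without Colon uninjected 1 and 2 and -0.50 without Colon KO 2 and Colon uninjected 3. Treated libraries 1 and 2 were lower still at 3.87 and 2.7 FPKM, whereas treated 4, a library with acinar transcripts, was at 9.95, within the KO range of 7.6 to 12.9. Treated minus KO was -1.08 (interval -1.98 to -0.18, adjusted p = 0.5816), and -1.49 (adjusted p = 0.2159) when the 2 acinar-rich libraries of that table were left out. Without Colon treated 2 it was -0.72. Ileal Slc1a1 had levels of 54.4, 48.1, 33.9 and 51.6 FPKM (KO), 42.9, 15.4 and 42.6 (uninjected) and 24.3, 32.3 and 41.2 (treated). Ileal differences from KO were -0.59 (interval -1.48 to 0.29) for uninjected and -0.60 (interval -1.22 to 0.03) for treated. Without Ileum uninjected 3 the former was -0.11, and without Ileum treated 1 the latter was -0.40.

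Slc15a1 encodes PEPT1, the proton-coupled carrier of dipeptides and tripeptides. Colon KO libraries 1 to 4 had 21.4, 36.4, 20.2 and 28 FPKM, uninjected 1 to 4 had 43.4, 13, 9.83 and 11.5, and treated 1, 2 and 4 had 2.48, 11.9 and 37.6. Most transgenic libraries were below every KO library, but the highest uninjected and the highest treated values were above or near the top of the KO range. The differences from KO were -0.67 (interval -1.66 to 0.31) for uninjected and -1.32 (interval -2.99 to 0.35, adjusted p = 0.7623) for treated. Without Colon uninjected 1 and 2 the uninjected minus KO value was -1.24 (adjusted p = 0.5230). Without Colon treated 4 the treated minus KO value was -2.20, and without Colon treated 1 it was -0.36. Ileal Slc15a1 was at 102, 155, 118 and 80.2 FPKM for KO, 138, 64.7 and 92.9 for uninjected and 115, 220 and 82.9 for treated, with differences from KO of -0.23 (interval -1.02 to 0.55) and 0.15 (interval -0.69 to 0.98). Without Ileum uninjected 3 the former was 0.03, and without Ileum treated 2 the latter was -0.24.

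Slc6a19 encodes B0AT1, the main sodium-coupled carrier of neutral amino acids in the brush border. It was low in the colon, from 0.417 to 1.94 FPKM for KO, 0.136 to 2.25 for uninjected and 0.289 to 2.07 for treated, and these ranges overlapped. In the ileum KO 3 had 28.7 FPKM against 135, 168 and 100 in KO 1, 2 and 4, uninjected had 80, 62.3 and 152, and treated 117 to 142. KO 3 was the lowest of all ileum libraries for Slc6a19. Ileal differences from KO were 0.02 (interval -1.32 to 1.36) and 0.43 (interval -0.78 to 1.65), and without KO 3 they were -0.53 and -0.11, so both signs turned without that library.

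Anpep encodes aminopeptidase N (CD13), which removes neutral residues from the amino end of peptides. In the colon it was at 4.87, 6.36, 18 and 8.95 FPKM in KO 1 to 4, at 56.3, 11.9, 50 and 9.35 in uninjected 1 to 4 and at 5.91, 21.5 and 15.1 in treated 1, 2 and 4. Uninjected 1 and 3 were above every other colon library, and uninjected 2 and 4 were within the KO range. Uninjected minus KO was 1.44 (interval 0.03 to 2.85, adjusted p = 0.7210 by limma) and 0.14 with the labelled sex in the model. There 3 of 4 uninjected colon samples are female and all KO samples male. The value of 0.14 thus sets uninjected 4 alone, at 9.35 FPKM, against KO, and cannot tell sex from the choice of that library. Uninjected 1 and 3 also had the most of Fabp6, one of the ileal markers, at 194 FPKM in uninjected 1 and 980 in uninjected 3, with 74.9 and 76.1 in uninjected 2 and 4, 35.1 to 175 in KO and 39 to 95.1 in treated. Over the whole ileal list (4 of 4 markers found, none at 0 throughout a group) the sums were 165 to 1238 FPKM in uninjected, 148 to 305 in KO and 236 to 415 in treated. By that sum uninjected 3 was the highest at 1238, but uninjected 1, at 334, was below treated 1, at 415, whose Anpep was 5.91 FPKM. Without Colon KO 2 and Colon uninjected 3 the Anpep difference was 0.96. The part of ileal transcripts in the colonic Anpep value was not tested.

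**Figure D4:**
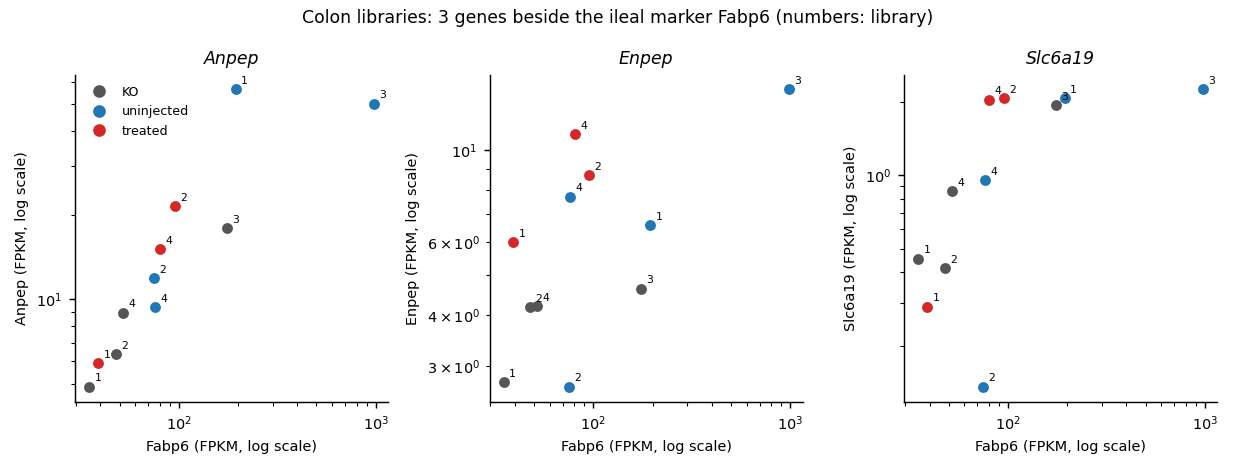
Anpep, Enpep and Slc6a19 against the ileal marker Fabp6 in the 11 colon libraries, in FPKM on log axes. Points are libraries, coloured by group and numbered as their columns. Uninjected 1 and 3, with the highest Fabp6 of 194 and 980 FPKM, also have the highest Anpep, 56.3 and 50 FPKM.

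In the ileum Anpep was the most abundant member in every library. It was at 1953, 1970, 1397 and 1674 FPKM for KO, 3399, 3597 and 1680 for uninjected and 2414, 1821 and 1401 for treated. Uninjected 4 was within the KO range and uninjected 1 and 3 above it. The differences were 0.66 for uninjected minus KO (interval -0.21 to 1.53), -0.65 for treated minus uninjected (interval -1.75 to 0.46) and 0.02 for treated minus KO (interval -0.66 to 0.70), all with limma.

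Enpep encodes aminopeptidase A, which removes acidic residues and also cleaves angiotensin peptides. Colon KO 1 to 4 had 2.75, 4.17, 4.62 and 4.2 FPKM, uninjected 1 to 4 had 6.57, 2.68, 14 and 7.71, and treated 1, 2 and 4 had 5.98, 8.68 and 10.9. The treated libraries were all above KO in their table (2.91 to 4.96), where 8.04% of genes had groups that did not overlap and 2 of 8 tested members, Enpep and Slc7a9, did. Treated minus KO was 0.93 (interval 0.35 to 1.5, adjusted p = 0.3460 by limma) and uninjected minus KO 0.72 (interval -0.21 to 1.65), or 1.32 without Colon uninjected 1 and 2 and 0.38 without Colon uninjected 3. In the uninjected and KO colon 2.71% of genes did not overlap, with Slc3a1 and Slc1a1 the 2 such members, and for treated against uninjected colon 1.37% did, with 0 members. The ileal effect for treated minus KO was lower than the colonic one (log2 difference -1.54, interval -2.79 to -0.29, adjusted p = 0.9767), without passing the threshold, and the difference was -0.87 without Ileum treated 1.

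Ileal Enpep was at 406, 531, 329 and 395 FPKM for KO, 544, 68.8 and 406 for uninjected and 110, 424 and 470 for treated. Dpp4, dipeptidyl peptidase IV (CD26), which cuts after proline and inactivates incretin hormones, was at 148, 200, 121 and 143 FPKM for KO, 152, 27.8 and 147 for uninjected and 34.8, 149 and 209 for treated. Mme, neprilysin (CD10), an endopeptidase of small peptides, was at 18.3, 27.7, 18 and 11.9 for KO, 17.6, 3.26 and 14.4 for uninjected and 2.44, 41.5 and 13.6 for treated. In all 3 genes uninjected 3 and treated 1 lay below every other ileum library, and the remaining transgenic libraries lay within or above the KO range.

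Uninjected minus KO in the ileum was -0.72 for Enpep (interval -2.16 to 0.72), -0.81 for Dpp4 (interval -2.08 to 0.46) and -0.90 for Mme (interval -2.10 to 0.31), and treated minus KO was -0.61, -0.61 and -0.70. Without Ileum uninjected 3 and Ileum treated 1 the values became 0.20, -0.01 and -0.19 for uninjected minus KO and 0.06, 0.17 and 0.32 for treated minus KO. The sign turned in both comparisons for Enpep and in treated minus KO for Dpp4 and Mme, and the other values moved toward 0. The groups overlapped for every member in uninjected against KO ileum, where 8.61% of genes did not, and in treated against KO, where 5.0% did not.

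In the colon Dpp4 was at 7.79, 7.83, 6.71 and 10.2 FPKM for KO, 2.74, 5.01, 7.84 and 10.2 for uninjected and 7.69, 4.29 and 14.3 for treated, with differences from KO of -0.44 (interval -1.23 to 0.36; 0.14 without Colon uninjected 1 and 2) and -0.12 (interval -0.93 to 0.69). Colon Mme was at 0, 0.0129, 0.848 and 0.0795 FPKM for KO, 0.226, 0.135, 0 and 0.334 for uninjected and 0.273, 0.891 and 1.03 for treated. Its mean was under 1 FPKM in each colon table, and exact two-sided permutation tests gave p = 0.943 for uninjected against KO, 0.0571 for treated against uninjected and 0.2 for treated against KO, where the smallest possible p was 0.0286.

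Within Ileum uninjected 3 and Ileum treated 1, the members of least and of most GC content moved in opposite directions. Across all genes of the table, the log2 deviation was higher with GC content of the transcript, by 1.08 per 10 percentage points in uninjected 3 and by 1.14 in treated 1, against -0.48 to 0.06 in the other 8 libraries of these 2 tables. A smooth trend in GC content and length held 50.1% and 64.8% of the variance of the deviations in these libraries. The members with the least GC, Mme (40.4%), Dpp4 (42.2%) and Enpep (45.5%), were the farthest below their own mean level, with deviations of -1.93, -2.07 and -2.25 in uninjected 3 and -2.43, -1.90 and -1.70 in treated 1. Anpep, with the most GC (53.3%), was above it, at 0.77 and 0.41. Members of middle GC did not follow one direction. In uninjected 3, Slc3a1 (48.4% GC) at 73.9 FPKM and Slc1a1 (48.0%) at 15.4 were below every KO library, and Slc7a9 at 477 was above every KO library. After the trend was taken off, the remainders in uninjected 3 were -1.09 for Dpp4, -1.49 for Enpep and 1.11 for Slc7a9 (48.5% GC), so part of each deviation was outside the trend. The fit with the trend removed gave uninjected minus KO of -0.38 for Enpep, -0.35 for Dpp4 and -0.43 for Mme, with no member called. Why these libraries differ was not tested.

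**Figure D5:**
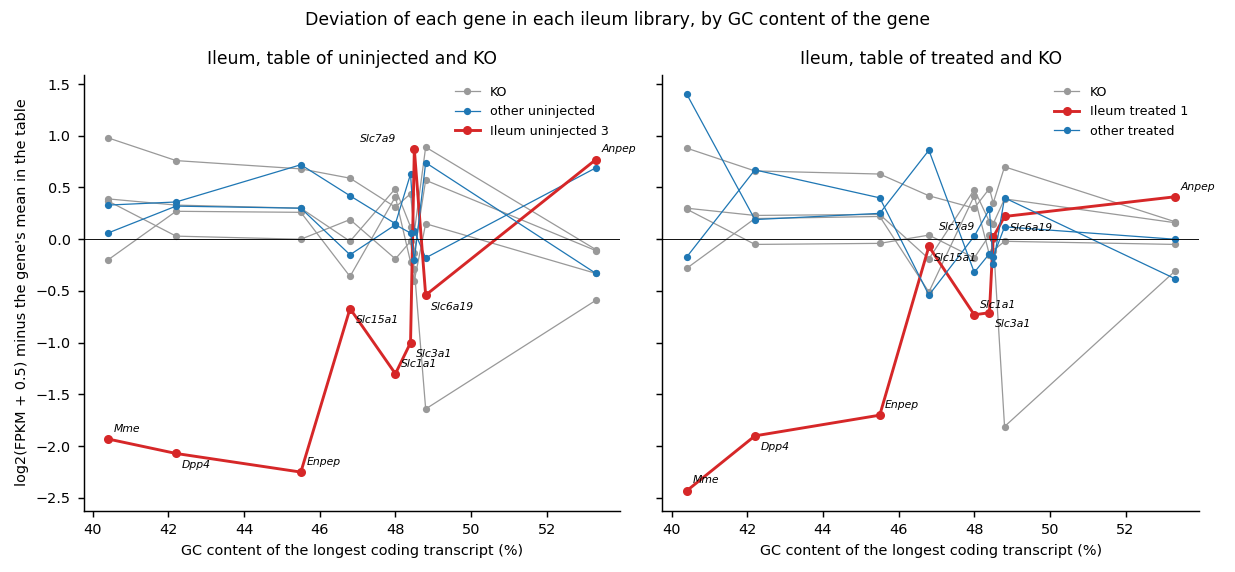
Deviation of each member from its own mean in the table, in log2(FPKM + 0.5), against the GC content of its longest coding transcript, for the ileum tables of uninjected and KO (left) and treated and KO (right). Each joined set of points is a library, with uninjected 3 and treated 1 in red and the genes named there. The red points fall to -2.25 and -2.43 at low GC and lie above 0 for Anpep at 53.3% GC.

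Those 2 libraries also differed in some enterocyte markers, of which 4 of 10 are given here. Fabp1 was at 542 FPKM in uninjected 3 and 622 in treated 1, and Apoa4 at 2564 and 2479, while Sis was at 48.3 and 54.6 and Apob at 12.3 and 19.5. In the 4 KO libraries Fabp1 was at 16.7 to 68.3, Apoa4 at 78.8 to 271, Sis at 211 to 266 and Apob at 58.5 to 120. Over all 10 enterocyte markers the sum was 48160 FPKM in uninjected 3 and 21290 in treated 1, against 7310 to 22060 in KO. Only uninjected 3 was above the KO range by that sum. By the median marker both were above KO, at 453.2 and 425.8 against 104.3 to 230.4 FPKM. Ileum treated 2, which had no such GC relation (-0.11), was also high in Fabp1 at 362 and Apoa4 at 681 FPKM, and was the highest library for Mme and Slc15a1. What part these marker differences have in the members' values was not tested.

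The nearest profile to each member was sought among all genes at a mean of at least 1 FPKM in the 3 tables of a tissue, by the root mean square difference of centred log2 profiles. In the ileum (10 libraries, 11607 genes) the nearest genes were Casp8 to Enpep (0.11), Heph to Dpp4 (0.12), Apobec1 to Slc3a1 (0.13), AI507597 to Anpep (0.13), Dqx1 to Slc7a9 (0.14), Nr6a1 to Slc1a1 (0.16), Bco2 to Slc15a1 (0.22), Slc22a5 to Slc6a19 (0.25) and Trim30d to Mme (0.37). Among members, Dpp4 and Enpep were each other's nearest (0.17), as were Slc7a9 and Anpep (0.26) and Slc3a1 and Slc1a1 (0.29). In the colon (11 libraries, 12199 genes) the nearest genes were Tmod3 to Dpp4 (0.14), Mfsd4 to Slc1a1 (0.19), Ces2b to Slc7a9 (0.28), Xpot to Enpep (0.31), Gpr137b to Slc15a1 (0.33), Tlr2 to Slc3a1 (0.35), Mttp to Slc6a19 (0.40) and Npc1l1 to Anpep (0.44). Members were less close in the colon, with Enpep and Slc6a19 nearest at 0.50 and Slc7a9 nearest to Slc3a1 at 0.59. The libraries of a tissue share the shifts in depth and base composition given above, so likeness is a description.

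A wider list of 30 further genes of peptide and amino acid handling was examined beside the members, of which all 30 were found, 27 were tested in each colon comparison and 26 or 27 in the ileum. No gene of this list passed the threshold in any of the 9 fits, so 0 rose and 0 fell in each. The median log2 difference over the tested list was 0.08 for uninjected minus KO in the colon and 0.35 in the ileum, beside medians of all genes of -0.01 and 0.01. Over the tested members these medians were 0.51 and -0.23. For treated minus KO they were 0.40 for colon members and -0.33 for ileum members, and -0.00 and 0.00 for the wider list, beside -0.01 and 0.00 for all genes. For treated minus uninjected the members' medians were 0.08 and 0.10.

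The genes named from that list are those with the smallest p in a comparison. Slc43a2, a uniporter for large neutral amino acids, was at 38.2, 51.6, 33.6 and 42.3 FPKM in Ileum KO and 88, 127 and 68.5 in uninjected (log2 difference 1.15, interval 0.49 to 1.81, adjusted p = 0.6652 by limma), and at 104, 69.4 and 64.9 in treated. Every transgenic ileum library was above every KO library. For uninjected against KO ileum, 8.61% of all genes had groups that did not overlap, as did 3 of the 26 tested genes of the list. For treated against KO ileum these values were 5.0% and 5 of 26. Slc7a7, the light chain of the basolateral exporter of basic amino acids, was at 2.73, 2.95, 3.78 and 3.23 FPKM in Colon KO and 0.801, 2.22 and 0.714 in treated (log2 difference -1.17, interval -1.88 to -0.46, adjusted p = 0.3264). It was called without Colon treated 2, at -1.54 with an adjusted p of 0.03858. In the ileum Slc7a7 was low, at a mean of 0.514 FPKM in KO and 1.87 in uninjected. There it went the other way (log2 difference 1.09, interval 0.22 to 1.95, adjusted p = 0.6652 by limma). For treated minus KO, the ileal minus colonic effect of Slc7a7 was 1.51 (interval 0.63 to 2.40, adjusted p = 0.8740 by limma). Slc6a6, the taurine carrier, was at 24.5, 22.3, 21.5 and 27.6 FPKM in Colon KO and 34.9, 34.8 and 38.5 in treated, a difference of 0.58 (interval 0.23 to 0.93, adjusted p = 0.3105), and passed with the GC and length trend removed (0.73, adjusted p = 0.04544).

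For treated minus KO in the ileum, 6 of the 26 tested genes of the list had an unadjusted p under 0.05 by limma. The share of all genes at that level is not given here, so this count has no background. The 4 smallest p by limma were those of Ace, Mep1a, Slc36a1 and Slc43a2, in that order. Slc43a2 had a log2 difference of 0.85 (adjusted p = 0.9389). The groups also differ in the ileal marker sums given above. Ace, the dipeptidyl carboxypeptidase that forms angiotensin II, was at 272, 136 and 77 FPKM in treated 1, 2 and 4 and 44.3 to 68.1 in KO (log2 difference 1.41, adjusted p = 0.8947 by limma; 0.94 without treated 1). Mep1a, the alpha subunit of the brush-border metalloprotease meprin, was at 116, 193 and 320 FPKM and 341 to 498 in KO (log2 difference -1.17, adjusted p = 0.9389; -0.80 without treated 1). Both sets of libraries were apart, and in both treated 1 was the farthest from KO. In this comparison 5.0% of all 11974 tested genes had groups that did not overlap, as did 5 of the 26 tested genes of the list. Slc36a1, a proton-coupled carrier of small neutral amino acids, was at 31.9, 19.6 and 6.96 FPKM and 3.28 to 7.12 in KO, so its groups overlapped (log2 difference 1.54, adjusted p = 0.9389; 1.07 without treated 1).

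For the remaining tests of a difference between tissues, 0.00809% of 12364 genes passed for the uninjected minus KO effect and 0% of 12437 for the treated minus uninjected effect, again with 0 members. For the first of these, Slc3a1 had a log2 difference of -1.11 (interval -2.07 to -0.14, adjusted p = 1.000 by limma), and -0.66 without Ileum uninjected 3. For the treated minus KO effect, Slc15a1 had the largest positive value among the members, at 1.46 (interval -0.43 to 3.35, adjusted p = 0.9767), and 0.51 without Colon treated 1.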

How the data were processed

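Poly(A) RNA-seq of 21 mouse colon and ileum samples was deposited by the authors as 6 tables of FPKM, each holding 2 groups of 1 tissue. Mapping used CLC Genomics Workbench, per the labels' protocols. The mm9 build, DESeq2, DESeq 1.14.0 and kallisto 0.45.0 are listed in the submitters' processing notes without saying what each did. Annotation and filters: not given in the sources used here. Within a tissue, a library's values differ between tables by a constant factor (0.9328 to 1.0109 in colon, 0.9151 to 0.9798 in ileum), so tests stay within a table.

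Column names tie all KO and Colon uninjected columns to single samples. The other columns are tied to their group alone. The approximate read totals were worked out from the steps between low FPKM values and are estimates. Of the gene symbols, 25 had been turned into dates and were not matched.

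Each comparison was fitted with limma 3.58.1 (R 4.3.3) on log2(FPKM + 0.5) with an intensity trend, for genes at a mean of at least 1 FPKM. Tests were two-sided, with Benjamini-Hochberg adjustment over all genes and a threshold of 0.05. The offset of 0.5 understates fold changes of low genes. The differences between tissues were fitted as interaction terms over the libraries of the tables concerned. Mme in the colon, under the filter, was tested by exact permutation of mean FPKM. The fits were tested on simulated data. GC content and length are those of the longest coding transcript in GENCODE M1 (mm9).

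Members, gene lists, markers and alternatives were chosen with earlier results of these data known. The text names all 9 members, up to 4 genes of the wider list with the smallest p in a comparison (not every one is described), and the nearest profile to each member. Alternatives covered the offset, the filter, scaling, labelled sex, a replicate block, a joint fit and left-out libraries. Removal of the GC and length trend, and the sets of libraries left out for a GC slope or, in treated colon, for acinar transcripts, were chosen after seeing the data.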

Additional observations from a re-analysis of the deposited data

Results flagged for a closer look

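Among 27 sets of 4 libraries (each member in each group of that size), 3 held a library whose gap to its nearest neighbour exceeded Dixon's critical share of the group's range. Chance alone gives this in about 1 set in 20. Mme in Colon KO was at 0.848 FPKM in KO 3, with a gap of 0.906 of the range. Slc15a1 in Colon uninjected was at 43.4 FPKM in uninjected 1 (0.906 of the range). Slc1a1 in Colon uninjected was at 3.78 FPKM in uninjected 3 (0.843 of the range).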

How the results depend on the processing

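Of 945 alternative fits of the 51 member differences within a tissue, 2 passed the threshold, both without Colon treated 2 (Slc7a9 1.51, adjusted p = 0.03858, and Slc3a1 1.63, adjusted p = 0.04453, for treated minus KO). The sign held in 24 of the 51 under every alternative and changed at least 1 time in 27, in 71 fits, none of them called. None of 684 alternative fits of the tissue differences passed. Counts of genes called stayed within 1.5 times in 122 of 188 results and moved in 66; the cause was not tested. For Colon uninjected minus Colon KO (10 genes), 3 were called with the replicate block, 1 with labelled sex, 3 without uninjected 1 and 2, and 3 without KO 2 and uninjected 3. For Colon treated minus Colon uninjected (0 genes), 1 was called with no filter, 1 with the GC and length trend removed, 1 without acinar-rich libraries and 4 with 3 groups in 1 fit. For Colon treated minus Colon KO (37 genes), these settings gave 61 with the trend removed (36 higher, 25 lower, against 28 and 9), 14 without acinar-rich libraries and 20 in the joint fit. For Ileum uninjected minus Ileum KO (1 gene), 2 were called with an offset of 0.1, 2 with a mean of at least 5 FPKM, 0 with median centring, 3 with equal sums without acinar genes, 0 with the trend removed and 0 without uninjected 3. For Ileum treated minus Ileum uninjected (0 genes) the joint fit called 2, and for Ileum treated minus Ileum KO (10 genes) equal sums gave 5 and the joint fit 4. For the tissue difference of the uninjected minus KO effect (1 gene), an offset of 0.1 gave 0, an offset of 1 gave 2, trend removal 2, leaving out Ileum uninjected 3 gave 3, and leaving out Colon uninjected 1 and 2 gave 2. For that of the treated minus KO effect (1 gene), no filter gave 7, equal sums 3, trend removal 3, leaving out Ileum treated 1 gave 2 and leaving out acinar-rich libraries 2.

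Leaving out each replicate in turn gave 2 to 68 genes for Colon uninjected minus Colon KO (68 without uninjected 4), 0 to 4 for Colon treated minus Colon uninjected, 17 to 49 for Colon treated minus Colon KO, 0 to 5 for Ileum uninjected minus Ileum KO, 0 to 0 for Ileum treated minus Ileum uninjected and 3 to 14 for Ileum treated minus Ileum KO. For the tissue differences it gave 1 to 3 (uninjected minus KO), 0 to 1 (treated minus uninjected) and 1 to 5 (treated minus KO). Replicate numbers were not taken as pairs. In Colon uninjected and Colon KO, where this was checked, deviations of same-numbered samples correlated at 0.00, -0.00, -0.01 and 0.67 for numbers 1 to 4, and 1 of 4 uninjected samples correlated best with its own number. With the replicate block Slc3a1 stayed at 0.92 (adjusted p = 0.5589), and no member was called.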
